A study of Mus musculus with 12 samples.

Results

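Preadipocyte and stromal progenitor markers are described here in cultured mouse adipocytes. They are 10 genes chosen by name among the 24341 gene symbols measured: Pdgfra, Pdgfrb, Pi16, Dpp4, Cd34, Ly6a, Thy1, Cd248, Icam1 and F3. Each was found at 1 locus. RNA of 12 libraries in 6 groups of 2 was sequenced, and levels are given in FPKM, a fragment count adjusted for the size of the library and the length of the transcript, so that levels of different genes can be set side by side. The WT white and KO-labelled white groups were adipocytes grown from C57BL/6 inguinal fat preadipocytes without rosiglitazone, and the WT beige and KO-labelled beige groups were the same kind of cells grown with rosiglitazone, an agonist of the adipogenic receptor PPARγ. The remaining 2 groups were beige adipocytes made with rosiglitazone from C3H10t1/2, an established mesenchymal cell line, as a control or with ATF7 overexpressed. KO stands for loss of ATF7, a transcription factor of the ATF2 family. The labels do not say which part of Atf7 was deleted, in which cells, or how overexpression was driven. The sources used here give no age, sex or pooling of the animals.

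Fat depots hold fibroblast-like progenitors around the adipocytes, and these cells carry PDGFRα and a set of further surface proteins by which they are sorted. In inguinal fat an early, interstitial population is known for DPP4 and PI16, a more committed preadipocyte population for ICAM1, and a population reported to restrain adipogenesis for F3, which is tissue factor, also called CD142. As progenitors become adipocytes they lose much of the surface and matrix programme of the stroma and gain lipid droplet and metabolic genes. Bulk RNA from a culture mixes adipocytes with whatever progenitors remain, so fewer cells of a type and less RNA per cell cannot be told apart in any value below.

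The promoters of 6 of the 10 genes were in the RefSeq table used (build GRCm38.p6), and 3 are shown. Of these, Cd34 and Pdgfra had 2 of the 4 lowest ratios of WT beige to WT white and F3 had the highest. The promoter of Pi16, which had the lowest ratio, is not shown. Each run is the 250 bases before the transcript start that the table uses, 5′ to 3′ on the gene's own strand, with motif matches in capitals. That start equals the deposited start of Cd34 and F3. For Pdgfra it lies shortly before the deposited start at 75152291 and inside the RefSeq gene, which begins further upstream at 75151322. The intervals are chr1:194938571-194938820 for Cd34, chr5:75152001-75152250 for Pdgfra and chr3:121723287-121723536 for F3, all on the plus strand.
Cd34: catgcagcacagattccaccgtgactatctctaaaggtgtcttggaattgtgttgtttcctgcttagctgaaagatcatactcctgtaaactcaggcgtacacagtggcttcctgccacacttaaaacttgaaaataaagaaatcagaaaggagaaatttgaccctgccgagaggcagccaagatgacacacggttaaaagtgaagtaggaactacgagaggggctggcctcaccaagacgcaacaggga
Pdgfra: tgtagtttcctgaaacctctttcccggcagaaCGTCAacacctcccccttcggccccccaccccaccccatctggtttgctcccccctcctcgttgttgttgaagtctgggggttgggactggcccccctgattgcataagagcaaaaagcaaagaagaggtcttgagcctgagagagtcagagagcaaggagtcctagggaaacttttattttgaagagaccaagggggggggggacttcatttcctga
F3: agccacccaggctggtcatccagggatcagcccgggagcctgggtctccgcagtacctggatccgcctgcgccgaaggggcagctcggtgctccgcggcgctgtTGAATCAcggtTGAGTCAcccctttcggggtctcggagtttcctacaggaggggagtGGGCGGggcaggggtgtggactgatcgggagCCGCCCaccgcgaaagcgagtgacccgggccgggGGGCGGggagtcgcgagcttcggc

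The motifs searched, on both strands, were the cyclic AMP response element TGACGTCA, which ATF family proteins can bind, its shorter form TGACG, the AP-1 motif TGANTCA, the GC box GGGCGG, the TATA box TATAAA, the PPAR response element, its repeat unit AGGTCA, and the NF-kB motif GGAANTTCC. The capitals in Pdgfra mark its only match, the TGACG motif read on the other strand, 218 bases before the start used; 17.7% of 32817 promoters of this length held that motif. In F3 they mark 2 AP-1 matches, 146 and 135 bases before the start, and 3 GC boxes; 6.75% of all promoters held the AP-1 motif and 32.7% a GC box. Pi16 and Cd34 held none of the 8 motifs. TGACGTCA was in 0 of the 6 promoters, against 1.55% of all, the PPAR response element was also in 0, against 0.0335%, and AGGTCA was in 0, against 14.0%. Of the other promoters not shown, that of Dpp4 held TATAAA, found in 12.4% of all promoters, and that of Icam1 held a GC box and the NF-kB motif, found in 0.811%. The F3 window was 70.0% G or C, against 46.4% in Cd34, 52.4% in Pi16, 54.4% in Pdgfra and a median of 52.4% over all promoters. These matches are letters only, and no binding was measured.

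Summed FPKM ran from 225536 to 272371 per library, the number of entries at 1 FPKM or more from 9844 to 10877, and the number of reads behind a value is unknown. Replicates of a group had Pearson correlations of 0.984 to 0.992 across genes. Nothing in the labels says that replicates came from separate animals or cultures, so a p-value here covers no more than the spread between libraries, which may be technical. Atf7 was at 7.80 and 7.83 FPKM in WT beige, against 7.26 and 7.94 with the KO label, and at 9.10 and 7.10 FPKM in WT white, against 6.88 and 7.73 with that label, so its transcript did not separate the KO label from WT. It was at 41.2 and 39.1 FPKM with overexpression and at 8.52 and 9.09 in the C3H10t1/2 control. The adipocyte label was borne out by Adipoq (adiponectin), at 274 FPKM or more in every library. Other cells that can carry these surface proteins were looked for through fixed marker lists. Of 8 T cell genes, Cd3e, Cd3g and Cd2 were at 0 in all 12 libraries. The sum of the 8 was 2.61 to 2.82 FPKM in WT white and 5.087 to 5.225 in KO-labelled white. It was 0.450 to 0.594 in primary beige and at most 0.0432 in C3H10t1/2. Ptprc, a gene of leukocytes in general, was the 1 of the 8 that passed the filter on low values. It made up most of the sum in the white groups. Its level was 2.46 and 2.67 FPKM in WT white and 4.90 and 4.67 in KO-labelled white. The sum of 11 endothelial markers was 8.27 to 8.95 FPKM in the white groups, 3.63 to 4.01 in primary beige and 3.71 to 4.79 in C3H10t1/2. Of these Pecam1 and Cdh5 reached no more than 0.555 and 0.645 FPKM, and Egfl7, Tek and Flt1, which passed the filter on low values, were at up to 3.71, 2.96 and 1.95. The sum of 12 pericyte and smooth muscle genes was 144.3 to 150.5 FPKM in WT white, 102.5 to 111.3 in KO-labelled white, 88.9 to 128.1 in primary beige and 39.7 to 50.5 in C3H10t1/2. Mesothelial genes, 8 in number, went the other way. Their sum was 1.46 to 2.70 FPKM in the white groups and 5.11 to 10.8 in primary beige, mostly from Krt19. In C3H10t1/2 it was 1.11 to 1.34. Macrophage genes were present in the white cultures: the sum of 12 markers was 477.1 to 528.3 FPKM in WT white and 682.3 to 736.6 in KO-labelled white, but 21.7 to 27.5 in both beige groups, with all 12 detected in each of the 4 primary groups, and 1.74 to 2.24 in C3H10t1/2, where Itgam, C1qa and C1qb were at 0.

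In WT cultures the markers were lower with rosiglitazone. All 9 genes that could be tested were lower in WT beige than in WT white, at an adjusted p under 0.05 in a limma fit of the 8 primary libraries, where 32.1% of 11294 genes tested were lower and 53.7% were called in either direction. The drop was largest for Pi16, Cd34, Pdgfra and Cd248 and smallest for F3. On the log2(FPKM + 1) scale, the median difference of the 9 was -1.14, and that of all genes was -0.10. The groups did not overlap for any of the 10 genes, as was true, in the lower direction, of 46.2% of all genes tested. The tenth gene, Dpp4, was under the filter of 1 FPKM in at least 2 libraries. Adding 1 FPKM understates the change of low genes, so ratios of mean FPKM are given beside the tested differences. Of the genes called, 40.2% were higher in beige; with quantile normalization that share was 50.9%, with median centring 51.4% and with small RNA genes removed 32.0%, and these scalings moved the median of all genes from -0.10 to 0.02, 0.01 and -0.19.

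**Figure D1:**
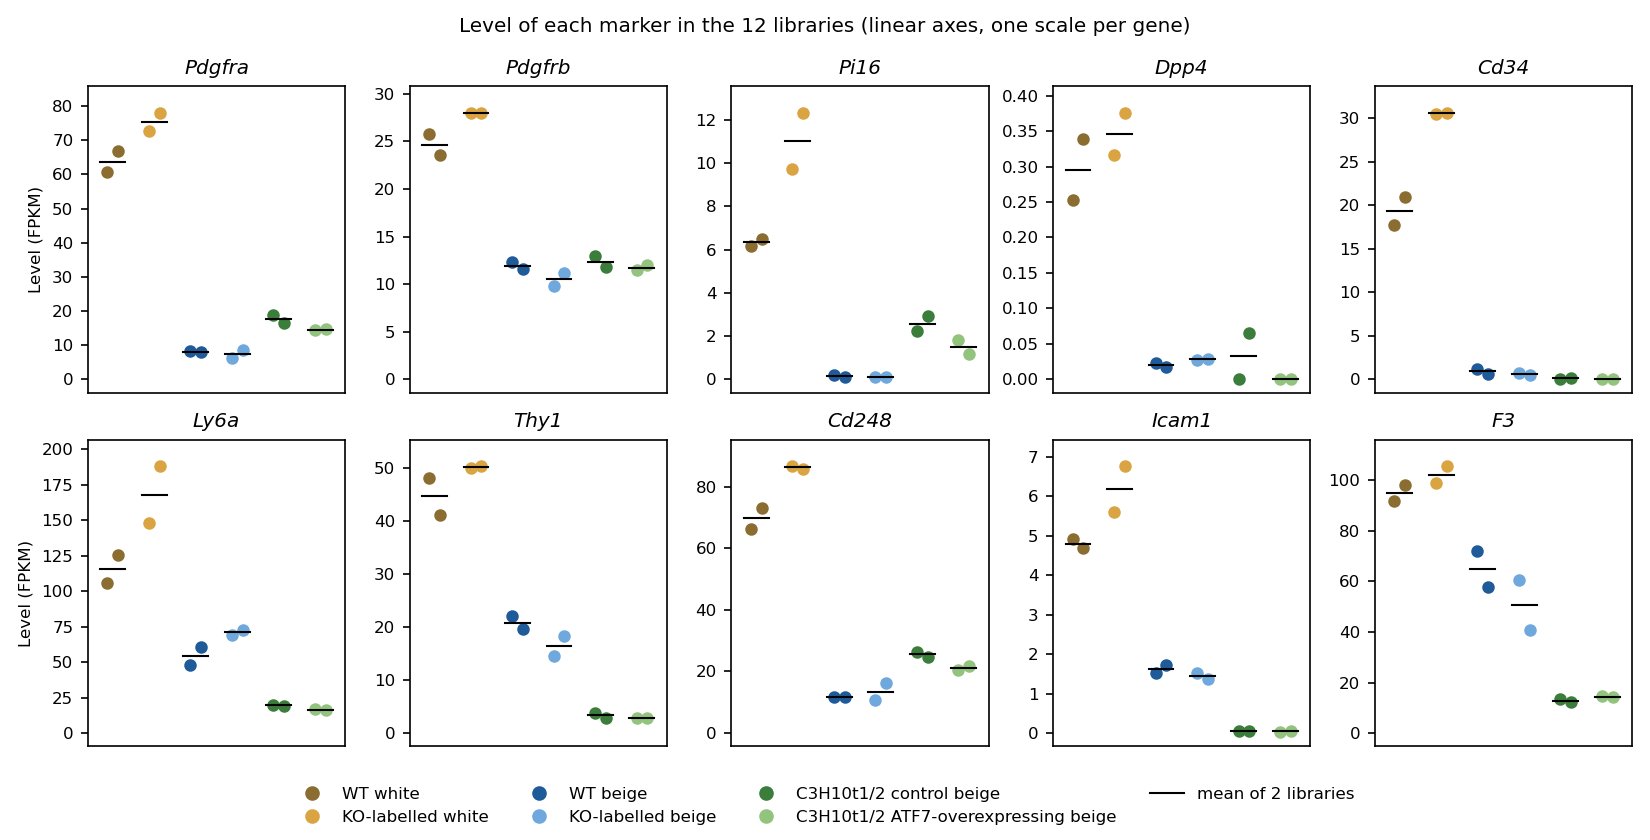
Level of each of the 10 markers in FPKM (linear vertical axis, one scale per gene) in the 12 libraries; points are libraries, coloured by group, and lines are the mean of 2. Both white groups, at the left of each panel, lie above both beige groups for every gene, and the KO-labelled white points lie above the WT white points in every panel except Dpp4.

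The receptors for platelet-derived growth factors, which pass growth signals to mesenchymal cells, fell unequally. Pdgfra (chromosome 5, 75152291 to 75198204, mm10), the general marker of adipose progenitors, was at 60.6 and 66.9 FPKM in WT white and at 8.21 and 7.94 in WT beige. Both beige libraries were far below both white ones, a 7.89-fold lower mean and a log2 difference of -2.83 (SE 0.13, adjusted p = 1.00e-06). Pdgfrb (chromosome 18, 61045150 to 61085067), known on perivascular as well as fat progenitors, was at 25.7 and 23.6 FPKM in WT white and at 12.3 and 11.6 in WT beige. The libraries again did not overlap, with a mean 2.06-fold lower in beige and a log2 difference of -0.99 (SE 0.10, adjusted p = 5.31e-05). Pdgfra was therefore the more abundant receptor transcript in white cultures and Pdgfrb in primary beige cultures. The ratio of Pdgfra to Pdgfrb was 2.36 and 2.83 in WT white, 2.60 and 2.79 in KO-labelled white, 0.666 and 0.686 in WT beige, and 0.641 and 0.763 in KO-labelled beige. C3H10t1/2 libraries lay between, at 1.45 and 1.41 in the control and 1.25 and 1.22 with ATF7 overexpression. These ratios were not given a test of their own.

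**Figure D2:**
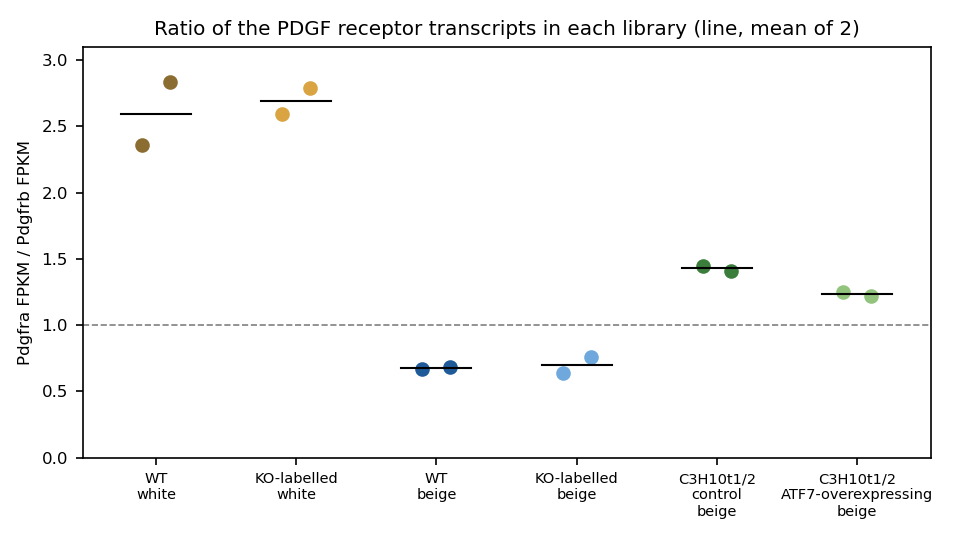
Ratio of Pdgfra to Pdgfrb FPKM (vertical axis, no unit) in each library by group; points are libraries, black lines the mean of 2, and the dashed line marks equal levels. White libraries lie between 2.36 and 2.83, primary beige libraries between 0.641 and 0.763, and C3H10t1/2 beige libraries between 1.22 and 1.45.

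Of 8 genes for PDGF ligands and related receptors, 5 could be tested, and 2 of these were lower in WT beige and 0 higher. Pdgfd, a ligand of PDGFRβ, had a log2 difference of -1.54 (SE 0.09, adjusted p = 3.27e-06), and Pdgfrl, a receptor-like gene, of -2.59 (SE 0.11, adjusted p = 8.17e-07). Pdgfc and Csf1, the latter a ligand of a related receptor, did not pass the test, at -0.15 (adjusted p = 0.251) and -0.27 (adjusted p = 0.301).

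Both markers of the interstitial population were far lower in WT beige, and Pi16 had the lowest ratio of the 10 genes. Pi16 (chromosome 17, 29318882 to 29328902), which encodes a secreted or membrane-bound peptidase inhibitor family protein, was at 6.19 and 6.51 FPKM in WT white and at 0.206 and 0.109 in WT beige. The beige levels were near the bottom of the scale, so the 40.3-fold ratio of means rests on very small values; the log2(FPKM + 1) difference was -2.67 (SE 0.12, adjusted p = 9.43e-07). Dpp4 (chromosome 2, 62330073 to 62412231), the dipeptidyl peptidase by which these cells are sorted, was low everywhere, at 0.252 and 0.339 FPKM in WT white and at 0.0234 and 0.0177 in WT beige. Without the filter on low values it could be tested, and its log2(FPKM + 1) difference was -0.34 (SE 0.04, adjusted p = 0.00114). Among 14 tested genes of 18 in a list for this population, 13 were lower in WT beige and 1 higher, with a median log2 difference of -1.79. Dpt (dermatopontin, a matrix protein) fell by 2.90, Fstl1 by 2.55, Timp2 (a metalloproteinase inhibitor) by 2.43 and Mfap5 (a microfibril protein) by 2.11 on the log2(FPKM + 1) scale, with adjusted p of 3.65e-07, 7.85e-07, 1.06e-06 and 1.20e-06. The 1 gene that was higher was Ackr3, a chemokine receptor, at 0.82 (SE 0.24, adjusted p = 0.0198), named here after its value was seen.

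Among the general stromal surface markers, Cd34 had the largest tested difference of all 9 genes. Cd34 (chromosome 1, 194938821 to 194961292), a sialomucin of progenitors and endothelium, was at 17.7 and 21.0 FPKM in WT white and at 1.18 and 0.639 in WT beige. White and beige libraries were far apart, with a 21.2-fold lower mean in beige and a log2 difference of -3.42 (SE 0.15, adjusted p = 7.94e-07). The 3 endothelial genes tested, Tek, Flt1 and Egfl7, were lower too (log2 differences -0.98, -0.70 and -0.42), and their part was not tested. Cd248 (chromosome 19, 5068078 to 5070639), endosialin of fibroblasts and pericytes, was at 66.3 and 73.2 FPKM in WT white and at 11.6 in each WT beige library. Its mean was 6.00-fold lower and its log2 difference -2.49 (SE 0.16, adjusted p = 4.51e-06), close in size to that of Pdgfra.

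Ly6a and Thy1 remained abundant in beige cultures while about 2.1 times lower than in white. Ly6a (chromosome 15, 74994877 to 74998031), which encodes the stem cell antigen SCA-1, was at 105.6 and 125.7 FPKM in WT white and at 48.1 and 60.9 in WT beige. The groups did not overlap, and the log2 difference was -1.08 (SE 0.16, adjusted p = 0.000511). Ly6a lies among similar Ly6 genes, and how the authors' counting shared 36-base reads between them is not known, so its level is uncertain. Thy1 (chromosome 9, 44043384 to 44048579), the surface glycoprotein CD90 of fibroblasts and T cells, was at 48.1 and 41.2 FPKM in WT white and at 21.99 and 19.6 in WT beige, a log2 difference of -1.07 (SE 0.13, adjusted p = 0.000162). Of 8 T cell genes, Cd3e, Cd3g, Cd3d and Cd2 were at 0 in these libraries. The sum of the 8 was 2.61 to 2.82 FPKM in WT white and 0.450 to 0.527 in WT beige, mostly from Ptprc in white. The part of such cells in Thy1 was not tested. Of 23 other mesenchymal stromal genes tested, 17 were lower in WT beige and 0 higher. The small proteoglycans Lum and Dcn fell by 3.67 and 2.84 on the log2 scale (adjusted p = 3.07e-07 and 4.29e-07), and the transcription factor gene Zfp521 by 2.34 (adjusted p = 1.25e-06).

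Icam1 (chromosome 9, 21015960 to 21028796), the adhesion molecule of committed preadipocytes, was at 4.91 and 4.69 FPKM in WT white and at 1.53 and 1.73 in WT beige. Both beige libraries were below both white ones, the mean was 2.94-fold lower, and the log2 difference was -1.14 (SE 0.11, adjusted p = 3.97e-05). The list for the committed population was mixed, with 6 of 14 genes lower and 4 higher. It includes lipid-handling genes such as Fabp4, at 2497 and 3055 FPKM in WT white and 9181 and 8602 in WT beige. In cultures of adipocytes this list therefore does not mark preadipocytes alone. Dlk1 and Vcam1 fell by 1.89 and 2.11 (adjusted p = 4.09e-05 and 4.27e-05), while Cd36, a fatty acid receptor, rose by 1.55 (SE 0.12, adjusted p = 1.12e-05).

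F3 (chromosome 3, 121723537 to 121735052), the cell surface starter of blood coagulation, changed least. It was at 91.8 and 98.0 FPKM in WT white and at 72.1 and 57.8 in WT beige. The groups did not overlap, but the beige libraries were well apart from each other, and the log2 difference was -0.55 (SE 0.18, adjusted p = 0.0308). That call was lost with median centring (adjusted p = 0.0877), with no filter on low values (0.0666), and without WT beige replicate 2 (0.193), WT white replicate 1 (0.0672) or WT white replicate 2 (0.112). Other genes of the CD142 population moved further: 8 of 10 tested were lower and 2 higher. Mgp (matrix Gla protein) fell by 2.99 and Gdf10 (a BMP family member) by 2.55 on the log2 scale, with adjusted p of 3.07e-07 and 2.74e-06, and Abcg1 (a cholesterol exporter) rose by 1.36 (adjusted p = 5.99e-06). Macrophage genes moved with all of these, with 10 of 11 tested lower in WT beige, and of 16 adipocyte genes 10 were higher and 5 lower. The endothelial list had 3 of 3 tested genes lower, the pericyte and smooth muscle list 6 of 8 lower and 2 higher, and the cell cycle list 8 of 9 lower. Krt19, the 1 mesothelial gene tested, was higher, with a log2 difference of 2.05. The part of these lists in the marker differences was not tested.

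The order of the 10 genes shifted between the 2 kinds of WT culture. In WT white the mean levels ran from Ly6a at 115.7 FPKM through F3 at 94.9, Cd248 at 69.7, Pdgfra at 63.7, Thy1 at 44.6, Pdgfrb at 24.7, Cd34 at 19.3, Pi16 at 6.35 and Icam1 at 4.80 to Dpp4 at 0.296. In WT beige F3 was first at 65.0 FPKM, followed by Ly6a at 54.5, Thy1 at 20.8, Pdgfrb at 11.9, Cd248 at 11.6 and Pdgfra at 8.07. Icam1 at 1.63, Cd34 at 0.912, Pi16 at 0.158 and Dpp4 at 0.0205 FPKM came last.

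KO-labelled cultures showed the same division. All 9 tested markers were lower in KO-labelled beige than in KO-labelled white, where 34.3% of 11294 genes were lower and 61.0% were called in either direction; the median difference was -1.57, against -0.06 over all genes. Of all calls 43.7% were higher, against 52.8% after quantile normalization or median centring and 35.4% without small RNA genes. Cd34 was at 30.5 and 30.7 FPKM in KO-labelled white and at 0.694 and 0.526 in KO-labelled beige, 50.1-fold apart in the means (log2 difference -4.30, SE 0.15, adjusted p = 1.68e-07). Pi16 was at 9.75 and 12.3 FPKM in white and at 0.0997 and 0.131 in beige (log2 difference -3.42, SE 0.12, adjusted p = 2.11e-07). Pdgfra was at 72.7 and 78.1 FPKM in white and at 6.27 and 8.54 in beige (-3.20, SE 0.13, adjusted p = 3.76e-07). Each of the 10 markers was lower in every beige library than in any white one, as were 44.7% of all genes tested. Cd248, at 86.6 and 85.9 against 10.8 and 16.1 FPKM, had a difference of -2.62 (adjusted p = 2.06e-06). Thy1, Icam1, Pdgfrb and Ly6a had differences of -1.57, -1.55, -1.34 and -1.22, with adjusted p of 1.20e-05, 4.59e-06, 6.20e-06 and 0.000179. F3 was at 98.8 and 105.5 FPKM in white and at 60.6 and 40.8 in beige, a difference of -1.02 (SE 0.18, adjusted p = 0.00114) that kept its call under all 20 alternatives tried. Dpp4 was at 0.316 and 0.376 FPKM in white and at 0.0279 and 0.0293 in beige, and passed the test when low values were kept (log2 difference -0.39, adjusted p = 0.000504). Macrophage genes again moved with the markers, 11 of 11 tested being lower in beige, as did cell cycle genes, 9 of 9 lower, and endothelial genes, 2 of 3 lower. Of 8 pericyte and smooth muscle genes 3 were lower and 2 higher. Krt19, the 1 mesothelial gene tested, was higher, with a log2 difference of 1.34. The part of these lists was not tested.

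**Figure D3:**
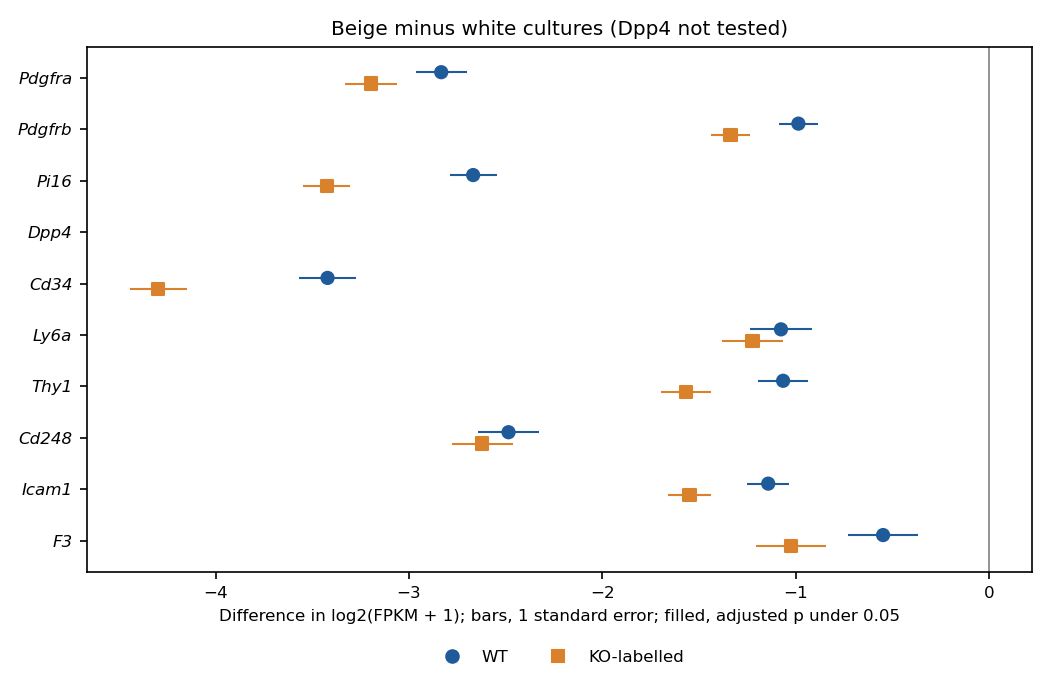
Difference between beige and white cultures for each marker, on the log2(FPKM + 1) scale (horizontal axis), in WT (circles) and KO-labelled (squares) libraries; bars are 1 standard error of the limma fit and filled symbols have an adjusted p under 0.05. All 18 plotted points are filled and lie below 0, from -4.30 for Cd34 to -0.55 for F3.

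All 9 tested markers stood above WT white in KO-labelled white cultures, but only Pi16 passed the test. The 9 showed no overlap between the 2 groups, which was true of 32.1% of all genes tested in that direction, and the median difference was 0.30, against 0.03 over all genes. Pi16 was at 9.75 and 12.3 FPKM in KO-labelled white and at 6.19 and 6.51 in WT white, a 1.74-fold ratio and a log2 difference of 0.71 (SE 0.12, adjusted p = 0.0330), where 1.27% of genes were called higher and 1.89% in either direction. Its call was lost with a pseudocount of 0.1 (adjusted p = 0.158) or 0.5 (0.0552), with no filter (0.0722), with only the 4 white libraries in the fit (0.067), and without either WT beige library (0.0569 and 0.0557), either WT white library (0.0654 and 0.126) or either KO-labelled white library (0.0615 and 0.253). The difference itself ran from 0.55 to 0.86 over the 20 alternatives.

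Cd34 was at 30.5 and 30.7 FPKM in KO-labelled white and at 17.7 and 21.0 in WT white, a 1.58-fold ratio that missed the threshold (log2 difference 0.64, SE 0.15, adjusted p = 0.0704) and passed it after quantile normalization (0.0349) and in the fit of all 12 libraries (0.0256). Ly6a was at 147.9 and 187.9 FPKM against 105.6 and 125.7 (0.53, SE 0.16, adjusted p = 0.124), and Icam1 at 5.59 and 6.76 against 4.91 and 4.69 (0.30, SE 0.11, adjusted p = 0.177). With Pi16 and Cd34 these made 4 of 9 markers with an unadjusted p under 0.05, against 19.9% of all genes. Within each comparison all markers were read from the same few libraries, so such counts are not of separate observations. Cd248, Pdgfra, Pdgfrb, Thy1 and F3 had differences of 0.30, 0.24, 0.18, 0.17 and 0.10, with adjusted p from 0.325 to 0.786. Dpp4 overlapped between the groups.

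The other stromal lists gave 0 genes called higher in this comparison, with 0 of 14 interstitial, 0 of 14 committed preadipocyte, 0 of 10 CD142 and 0 of 23 mesenchymal genes. The committed list leaned lower, with 9 of 14 below 0, a median of -0.14 and Cd36 lower by the test (-0.67, SE 0.12, adjusted p = 0.0339), and Mgp of the CD142 list was lower (log2 difference -0.88, SE 0.10, adjusted p = 0.00629). Timp2 and Dpt, which led the interstitial list, were at 0.54 (adjusted p = 0.0575) and 0.41 (adjusted p = 0.0871). After quantile normalization 2 interstitial genes were called higher, and 1 committed gene higher and 2 lower. With median centring 1 gene of each of these lists was called higher, and 1 committed gene lower. Macrophage genes moved with the markers: 4 of 11 tested were higher, Csf1r, Cd14, Mrc1 and C1qb, by 0.71, 0.79, 0.82 and 0.75, and all 11 were above 0. Adipocyte genes leaned the other way, 13 of 16 below 0, with Cidec lower by the test (-0.73, adjusted p = 0.0230), and Mki67 of the cell cycle list was higher (0.66, adjusted p = 0.0269). The part of these in the marker differences was not tested. Of all calls 67.1% were higher, but 50.4% after quantile normalization and 52.8% after median centring.

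In beige cultures 0 of 9 tested markers differed between KO-labelled and WT libraries at an adjusted p under 0.05, where 0.151% of genes did; 2 of 9 had an unadjusted p under 0.05, against 10.3% of all genes, and 7 of 9 were below 0. The median difference of the 9 was -0.12, against 0.04 over all genes. Pi16 and Cd34 are among the 9 only through the white libraries of the same fit, since in beige cultures alone they did not pass the filter. With only the beige libraries in the fit, 7 markers could be tested and 0 were called. Without overlap between the groups, 1 of 9 lay above WT and 3 below, against 27.1% and 14.1% of all genes. Ly6a was at 69.0 and 72.8 FPKM in KO-labelled beige and at 48.1 and 60.9 in WT beige, without overlap (0.38, SE 0.16, adjusted p = 0.466). Thy1 was at 14.5 and 18.2 against 21.99 and 19.6, also without overlap (-0.33, SE 0.13, adjusted p = 0.438). Pdgfrb and Icam1 lay without overlap below WT, at 9.79 and 11.2 against 12.3 and 11.6 FPKM and at 1.52 and 1.38 against 1.53 and 1.73, with adjusted p of 0.585 and 0.782. Pdgfra, Pi16, Cd34, Cd248 and F3 overlapped, and the values of Pdgfra, Pi16 and Cd248 changed sign when 1 library was left out. The 1 gene called in the stromal lists was again Mgp, lower by 0.75 (SE 0.10, adjusted p = 0.0331). Of 16 adipocyte genes 13 were below 0 in beige cultures too, with a median of -0.109 and 0 called. Their part in the marker differences was not tested.

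The difference between the 2 genotype effects was tested as an interaction, and 0 of 9 markers passed, where 0.292% of genes did; 5 of 9 had an unadjusted p under 0.05, against 16.8% of all genes. All 9 values were below 0, that is, the estimates put beige cultures further below white with the KO label. Their median was -0.41, against 0.01 over all genes. The markers tracked each other across these 8 libraries, so 9 equal signs are not 9 separate observations. Cd34 had the largest value, at -0.88 (SE 0.21, adjusted p = 0.151), followed by Pi16 at -0.76 (SE 0.17, adjusted p = 0.147) and Thy1 at -0.50 (SE 0.18, adjusted p = 0.235). Cd34 and Pi16 passed the filter on low values only through white libraries. The values of Ly6a at -0.15 and Cd248 at -0.14 turned above 0 when 1 library was left out, Ly6a without WT beige replicate 2 (0.020) or KO-labelled white replicate 2 (0.025) and Cd248 without KO-labelled beige replicate 1 (0.135). All comparisons among the 8 primary libraries share groups, so these values are not independent of those above.

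In C3H10t1/2 beige adipocytes, 0 of 7 tested markers differed with ATF7 overexpression at an adjusted p under 0.05, where 1.49% of 9981 genes did, although Atf7 itself was higher (log2 difference 2.07, SE 0.07, adjusted p = 0.000162). Unadjusted p were under 0.05 for 4 of the 7, against 17.2% of all genes, and 6 of 7 were below 0. The median difference of the 7 was -0.23, against -0.02 over all genes. Without overlap, 5 of 7 lay below the control and 1 above, against 28.8% and 20.3% of all genes. The 7 were read from the same libraries, so these counts are not of separate observations. Pdgfra was at 14.4 and 14.6 FPKM against 18.8 and 16.6 in the control (-0.27, SE 0.08, adjusted p = 0.162), and Cd248 at 20.6 and 21.8 against 26.5 and 24.9 (-0.26, SE 0.07, adjusted p = 0.137). Pi16 was at 1.80 and 1.19 FPKM against 2.22 and 2.95 (-0.53, SE 0.16, adjusted p = 0.173), and Ly6a at 16.6 and 16.3 against 19.9 and 19.0 (-0.23, adjusted p = 0.161). All 4 had both overexpressing libraries under both controls. F3 was the 1 tested gene above 0, at 14.6 and 14.2 against 13.3 and 12.4 FPKM (0.15, adjusted p = 0.338). Pdgfrb overlapped, at 11.5 and 11.98 against 12.96 and 11.8. Cd34 was listed at 0 in both overexpressing libraries and at 0.0914 and 0.140 in the controls, and Dpp4 and Icam1 were at or under 0.0648 FPKM in all 4. Of all calls 28.9% were higher, and 45.7% without small RNA genes.

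**Figure D4:**
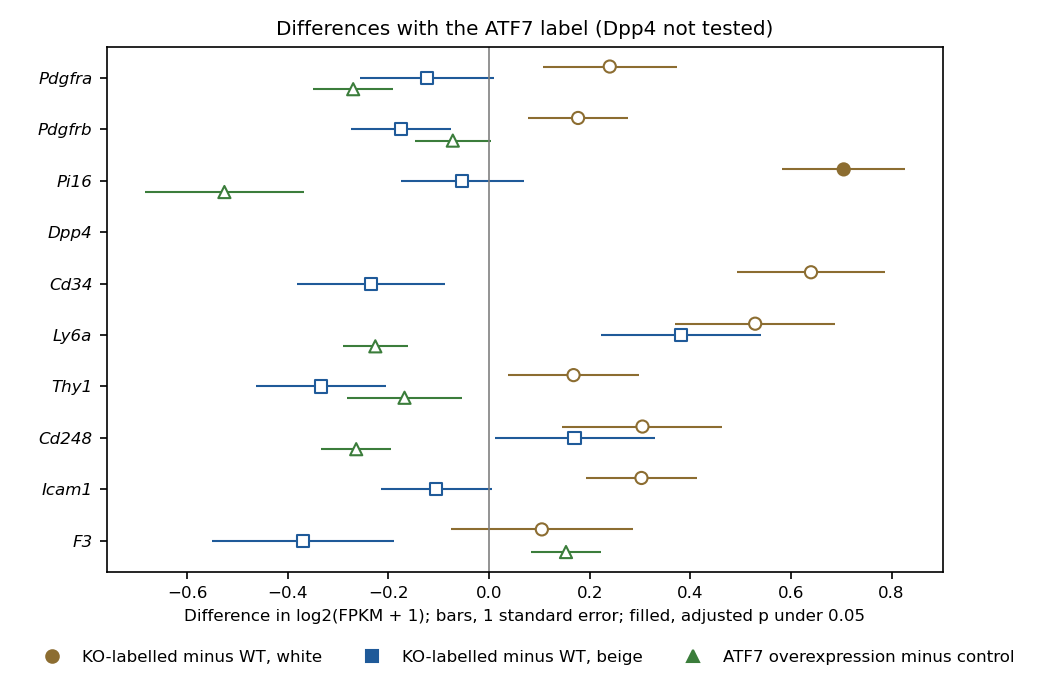
Difference with the ATF7 label for each marker on the log2(FPKM + 1) scale (horizontal axis): KO-labelled minus WT in white (circles) and beige (squares) cultures and overexpression minus control in C3H10t1/2 (triangles); bars are 1 standard error and filled symbols have an adjusted p under 0.05. The only filled symbol is Pi16 in white cultures, at 0.71; all 9 circles lie above 0, and 7 of 9 squares and 6 of 7 triangles lie below it.

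Beige adipocytes of the cell line and of inguinal preadipocytes differed in their levels of most markers, some higher and some lower in the line. With 9 markers tested in the fit of all 12 libraries, 3 were higher and 5 lower in the C3H10t1/2 control than in WT beige, where 31.1% of 11601 genes were higher, 25.3% lower and 56.4% called in either direction. The same 8 did not overlap between the groups, in a background of 45.3% of genes higher and 36.5% lower by that rule. Pi16 was at 2.22 and 2.95 FPKM in the line and at 0.206 and 0.109 in WT beige (log2 difference 1.62, SE 0.15, adjusted p = 7.09e-06). Pdgfra, at 18.8 and 16.6 against 8.21 and 7.94, and Cd248, at 26.5 and 24.9 against 11.6 in both, were 2.19-fold and 2.21-fold higher in the means (1.04 and 1.08, adjusted p = 4.26e-05 and 0.000107). Thy1, at 3.81 and 2.92 against 21.99 and 19.6 FPKM, was 6.17-fold lower (-2.32, SE 0.13, adjusted p = 2.17e-07). F3 was 5.06-fold lower, at 13.3 and 12.4 against 72.1 and 57.8 (-2.24, SE 0.16, adjusted p = 1.34e-06), and Ly6a 2.80-fold lower, at 19.9 and 19.0 against 48.1 and 60.9 (-1.43, SE 0.14, adjusted p = 1.16e-05). Icam1 was at 0.0440 and 0.0462 against 1.53 and 1.73 (-1.33, SE 0.10, adjusted p = 1.44e-06) and Cd34 at 0.0914 and 0.140 against 1.18 and 0.639 (-0.76, adjusted p = 0.000723), both nearly without signal in the line. In this fit Cd34 passed the filter on low values only through white libraries. Pdgfrb overlapped, at 12.96 and 11.8 against 12.3 and 11.6 (0.05, SE 0.09, adjusted p = 0.676). The line has its own strain and source, so cell origin cannot be told apart from either. A white or undifferentiated C3H10t1/2 culture was not analysed here, so these are levels and not changes with differentiation.

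Ranked over the 6 groups, KO-labelled white was highest and WT white second for all 10 genes, and the order below them differed between genes. For Pdgfra, Pi16 and Cd248 the C3H10t1/2 control and then the overexpressing line came next, above both primary beige groups. In the fit of all 12 libraries, the step from overexpressing C3H10t1/2 to the next primary beige group was 0.77 for Pdgfra, 1.099 for Pi16 and 0.64 for Cd248, with adjusted p of 0.000348, 0.000118 and 0.00306. For Cd34, Ly6a, Thy1, Icam1 and F3 both C3H10t1/2 groups came last. The step down to the first of them was 0.53 for Cd34, 1.43 for Ly6a, 1.99 for Thy1, 1.23 for Icam1 and 1.72 for F3, and the adjusted p ran from 6.12e-07 to 0.00663. The step from WT white to the group next below it passed the test for all 9 tested genes. For Pdgfrb the 4 beige groups lay between 10.5 and 12.4 FPKM and no neighbours among them passed (adjusted p of 0.168 to 0.819). Neighbouring groups that differed only in the ATF7 label passed in this fit only for Pi16 and Cd34, between KO-labelled white and WT white.

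Across the 8 primary libraries the 10 markers tracked each other, with pairwise Pearson correlations of log2(FPKM + 1) from 0.739 to 0.996 and a median of 0.976 over 45 pairs. Over all 12 libraries the range was 0.314 to 0.996, lowest for Pi16 with F3 and highest for Pdgfra with Cd248. These correlations mostly restate the distance between groups, since white, primary beige and C3H10t1/2 libraries lie apart. The genes most like each marker over the 12 libraries were taken from 9839 genes. Tgfbr2, a receptor for TGF-β, was nearest to both Pdgfra and Cd248, with r of 0.997 for each. Zfp521, a transcription factor gene of mesenchymal progenitors, was also among the 3 nearest to Pdgfra, at 0.996. Rgma, a BMP co-receptor, was nearest to Pdgfrb (0.996), Elmo2 to Pi16 (0.993), Thbs3, a thrombospondin, to Dpp4 (0.989) and Apba1 to Ly6a (0.994). Efemp2, a matrix protein, was nearest to Thy1 (0.996), the metalloproteinase gene Mmp23 to Icam1 (0.996) and the sphingosine phosphate receptor gene S1pr3 to F3 (0.997). Cd34 stood apart in its neighbours, which were the macrophage genes Mrc1 (0.998) and Siglec1 (0.996), and then Ggta1 (0.996). Mrc1 was at 43.2 and 34.9 FPKM in WT white, 67.4 and 71.0 in KO-labelled white, 0.626 to 1.04 in primary beige and at most 0.0105 in C3H10t1/2.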

How the data were processed

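RNA of 12 libraries was described in 6 groups of 2 taken from the labels; per the labels' protocols, total RNA was depleted of ribosomal RNA and directional libraries were read with 36 bases at each end. The authors computed FPKM, 1 value per gene, before they deposited it, and the submitters' processing notes name mm10. No source used here gives the aligner, the quantifier or a filter, and depth is unknown. Loci in the deposited values start from 0, so 1 was added.

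The 24888 entries were tested with limma 3.58.1 (R 4.3.3, trended eBayes) on log2(FPKM + 1), keeping entries of at least 1 FPKM in at least 2 libraries, with Benjamini-Hochberg adjustment over all entries and a threshold of 0.05. The 8 primary libraries shared 1 fit (4 residual degrees of freedom), C3H10t1/2 had its own (2), and line against primary used all 12 (6). Simulated data were made for KO-labelled against WT white, overexpression against control and the line against WT beige only. They had independent normal noise of the spread that the fit had estimated. Log2 differences of 1 and 2 were planted in genes with a mean log2(FPKM + 1) above 2. That trial cannot show whether real noise has this form. It did not cover the other comparisons, low markers or differences smaller than 1. Similar genes are those with the highest Pearson r over 12 libraries among genes with a mean log2(FPKM + 1) of at least 1, 3 per marker, without predicted and small RNA genes. All 10 markers are named, and of other lists the 4 genes with the lowest p at most. The markers, lists and motifs were chosen with earlier results of these data known. Alternatives were other pseudocounts, filters, scalings, fits, a replicate block and each library left out.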

Additional observations from a re-analysis of the deposited data

How the results depend on the processing

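Every direction and call of the 9 tested markers between beige and white cultures was kept under all alternatives except the call of F3 in WT, given in the report. The count of markers called between KO-labelled and WT white, 1 as reported, was 0 with pseudocounts of 0.1 and 0.5, with no filter and with only the groups compared, 2 with quantile normalization and with all 12 libraries in 1 fit, and 0 to 1 when each library was left out. Values that changed sign did so with adjusted p of 0.576 or more: Pdgfrb between the C3H10t1/2 control and WT beige was -0.022 after quantile normalization and -0.018 to 0.109 when each library was left out. On leaving out each library, KO-labelled against WT beige ranged from -0.319 to 0.072 for Pdgfra, -0.113 to 0.008 for Pi16 and -0.100 to 0.439 for Cd248, and the interaction from -0.319 to 0.025 for Ly6a and -0.404 to 0.135 for Cd248.

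Replicate numbers did not pair the libraries: correlations of replicate differences between groups lay between -0.097 and 0.104. With a replicate block the number of markers called was the same in every comparison, and genes called went from 17 to 27 between KO-labelled and WT beige and from 149 to 88 with overexpression. Between KO-labelled and WT white the 213 genes called became 54 with a pseudocount of 0.1, 105 with 0.5, 122 with no filter, 141 with a filter on the mean, 387 after quantile normalization, 642 in the fit of all 12 libraries, 116 with only the white libraries, and 23 to 277 when each library was left out. Over the same omissions the 17 in beige ran from 5 to 20, the 33 of the interaction from 16 to 43 and the 149 with overexpression from 17 to 138. The fit of all 12 libraries called 26 in beige and 116 for the interaction, which was 20 with a pseudocount of 0.1 and 14 with a filter on the mean. Overexpression called 22 with no filter and 91 without the trend. Depth is unknown, so no interval for counting error can be given for markers under 1 FPKM.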
